A study of Mus musculus with 9 samples.

Results

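The angiomotins and a set of transcripts that the transcriptional coactivator YAP controls were followed in MA-10 cells, a mouse Leydig tumour line. The set held 7 genes: the angiomotin family (Amotl2, Amotl1 and Amot), the secreted YAP targets Ccn2 (listed as Ctgf in older annotation) and Ccn1 (Cyr61), the nuclear ankyrin repeat protein gene Ankrd1, and the kinase gene Lats2. All 7 of the 7 were found among 19938 genes with a single-symbol probe, each through 1 probe. Amotl2 was chosen by its measured log2 differences, being higher with forskolin and hardly lower when AICAR was added, so its values are described here without a test. The other 6 were tested, although they too were chosen with earlier results of these data known.

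Transcripts were measured on 9 Affymetrix whole-transcript arrays, 3 for each of 3 groups of the same line in serum-free medium for 1.5 h. The groups received 10 µM forskolin with 1 mM AICAR, 10 µM forskolin alone, or DMSO, the vehicle, called control below although the sample titles speak of no treatment. Forskolin switches on adenylyl cyclase and raises cAMP, and AICAR is converted in cells to an AMP mimic that activates AMPK, the energy-sensing kinase. No group with AICAR alone was analysed here, and the labels do not say whether the replicates were separate cultures, so p-values reflect the spread among these arrays, which may be technical.

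YAP and its relative TAZ have no DNA-binding domain of their own and act through TEAD transcription factors. The Hippo kinases, with Lats1 and Lats2 at the end of the cascade, phosphorylate YAP and hold it in the cytoplasm, and angiomotins bind YAP at junctions and along actin filaments. Amotl2 and Lats2 are also YAP targets in other cell types, where they form a negative feedback loop. In cultured cells of other kinds, protein kinase A, which cAMP activates, inhibits YAP through the LATS kinases, and AMPK phosphorylates both YAP and angiomotin-like 1.

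Promoter sequences of the 4 YAP targets with an entry in the RefSeq promoter table (build GRCm38.p6) are shown because they hold the letters of the element that TEAD factors bind. Each runs 5′ to 3′ on the gene's own strand from 250 bases before to 50 bases after an annotated start, which need not be the start used in MA-10 cells. Capitals mark GGAATG on either strand (printed CATTCC when it lies on the other strand), the core of TEAD sites, and TGACG on either strand (CGTCA), the half-site of the cAMP response element.
Amotl2: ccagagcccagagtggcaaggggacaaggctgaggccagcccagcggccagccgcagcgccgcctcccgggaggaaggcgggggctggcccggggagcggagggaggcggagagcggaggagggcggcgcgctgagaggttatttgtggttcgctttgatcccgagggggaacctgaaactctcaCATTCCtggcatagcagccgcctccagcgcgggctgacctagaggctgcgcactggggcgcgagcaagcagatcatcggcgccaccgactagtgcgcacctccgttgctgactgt
Ccn1: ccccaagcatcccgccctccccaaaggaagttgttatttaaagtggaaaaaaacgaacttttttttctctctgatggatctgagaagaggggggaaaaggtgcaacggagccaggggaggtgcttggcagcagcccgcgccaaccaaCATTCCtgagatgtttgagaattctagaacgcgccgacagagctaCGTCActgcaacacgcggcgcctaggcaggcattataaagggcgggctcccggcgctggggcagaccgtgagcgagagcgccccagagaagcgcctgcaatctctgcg
Ankrd1: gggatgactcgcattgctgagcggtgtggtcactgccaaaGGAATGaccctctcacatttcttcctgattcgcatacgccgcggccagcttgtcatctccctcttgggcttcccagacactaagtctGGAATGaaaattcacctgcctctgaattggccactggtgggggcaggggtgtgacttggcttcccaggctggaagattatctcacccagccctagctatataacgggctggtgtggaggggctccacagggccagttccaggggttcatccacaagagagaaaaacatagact
Lats2: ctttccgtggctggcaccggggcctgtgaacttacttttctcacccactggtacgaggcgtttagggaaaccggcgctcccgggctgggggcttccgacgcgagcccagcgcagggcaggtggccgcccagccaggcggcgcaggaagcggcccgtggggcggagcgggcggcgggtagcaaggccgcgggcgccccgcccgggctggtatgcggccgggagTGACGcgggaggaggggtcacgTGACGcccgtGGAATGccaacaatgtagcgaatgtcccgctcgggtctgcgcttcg

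The Amotl2 window, chr9:102717554-102717853 (plus strand), held 1 TEAD core, its first base at position −65 from the start, and no TGACG. The Ccn1 window, chr3:145649936-145650235 (minus strand), held a TEAD core at −103 and a cAMP half-site at −58. The Ankrd1 window, chr19:36119795-36120094 (minus strand), held 2 TEAD cores, at −210 and −123, and no half-site. The Lats2 window, chr14:57746074-57746373 (minus strand), held a TEAD core at position 5 and half-sites at −28 and −6, and a further Lats2 entry of the table held neither. The windows of Amotl1, chr9:14614951-14615250, and Amot, chrX:145487590-145487889 (both minus strand), held no TEAD core and 1 half-site each. Both windows belong to starts inside the annotated genes, whose 5′ ends are at 14662974 and 145505966. No window at those ends was searched. Of 32851 promoter windows in the table, 14.7% held GGAATG and 20.8% held TGACG. No window of these genes held the full cAMP response element TGACGTCA (1.79% of all windows), the AP-1 element TGANTCA (7.81%) or a CArG box, the element bound by SRF (1.63%), again on both strands. These matches describe letters in a window and are not evidence of binding.

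The values are log2 summaries per probe, on which 1 unit is a doubling, and a level is not compared between genes because probes differ in response. Array medians lay between 7.14 and 7.19. Interquartile ranges lay between 3.34 and 3.48 and were narrowest on AICAR replicates 2 and 3 (3.35 and 3.34). At least 2 arrays had the same value to 4 decimals in 61.2% of genes. Forskolin acted on the cells: Star, the mitochondrial cholesterol carrier of steroid synthesis, and the nuclear receptor gene Nr4a1 were raised (log2 differences 1.89 and 2.64 against control, limma adjusted p = 2.8e-07 and 2.39e-08). All 6 measured Leydig markers had means above the array median (8.66 to 11.95). Of 25 measured markers of Sertoli, germ, macrophage, endothelial and peritubular cells 6 did, among them Sox9 (9.66) and Cdh5 (11.96), which encodes VE-cadherin, while the other 4 endothelial markers lay below it. Of these 25 markers, 3 were called in a comparison with AICAR: Sox9, a Sertoli marker, fell by 0.46 from forskolin (limma adjusted p = 0.00134) and by 0.56 from control (adjusted p = 0.000427), Cd68, a macrophage marker, fell by 0.39 and 0.28 (adjusted p = 0.00676 and 0.0264), and Dmrt1, a Sertoli marker, was 0.33 above control (adjusted p = 0.0181). Of all genes, 5.1% were called between forskolin with AICAR and forskolin and 8.72% against control. Among the Leydig markers, Star, Hsd3b1 and Hsd3b6 were called lower with AICAR than with forskolin (−2.05, −0.59 and −0.25). Their limma adjusted p was 5.21e-07, 0.0437 and 0.0337. The part of these markers in any result described here was not tested.

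Amotl2, an angiomotin that links junctional cadherin complexes to actin fibres, was the member with the widest difference between the groups. Its log2 values were 9.05, 9.06 and 9.23 with forskolin and AICAR, 9.17, 9.23 and 9.35 with forskolin alone, and 8.42, 8.47 and 8.35 in control. All 6 arrays of forskolin-treated cells lay above all 3 control arrays, while both treated groups overlapped each other. Over all genes, 6.85% had forskolin arrays entirely above the control arrays, and 15.2% had arrays with forskolin and AICAR entirely above them. The means were 9.11 ± 0.10, 9.25 ± 0.09 and 8.41 ± 0.06 (SD, n = 3 each) in the same order of groups. The forskolin level was 1.79-fold the control level (log2 difference 0.84, SE 0.06), and the level with forskolin and AICAR was 1.63-fold the control level (0.70, SE 0.06). Between forskolin with AICAR and forskolin the log2 difference was −0.14 (SE 0.06), or 0.91-fold. With AICAR, 83.8% of the forskolin difference on the log2 scale was left. For Star, by the same measure, −8.52% was left, since its level with AICAR was just under that of control, and for Nr4a1 82.7%. The 99 genes called higher with forskolin include Amotl2, whose call is not read as a result, since it was picked for this rise. Over these 99 genes the median share left was 19.5%, with quartiles of −14.7% and 62.9%, and 10 genes had a larger share than Amotl2. These shares use the same forskolin and control arrays for both differences and describe the pattern for which the gene was picked.

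**Figure D1:**
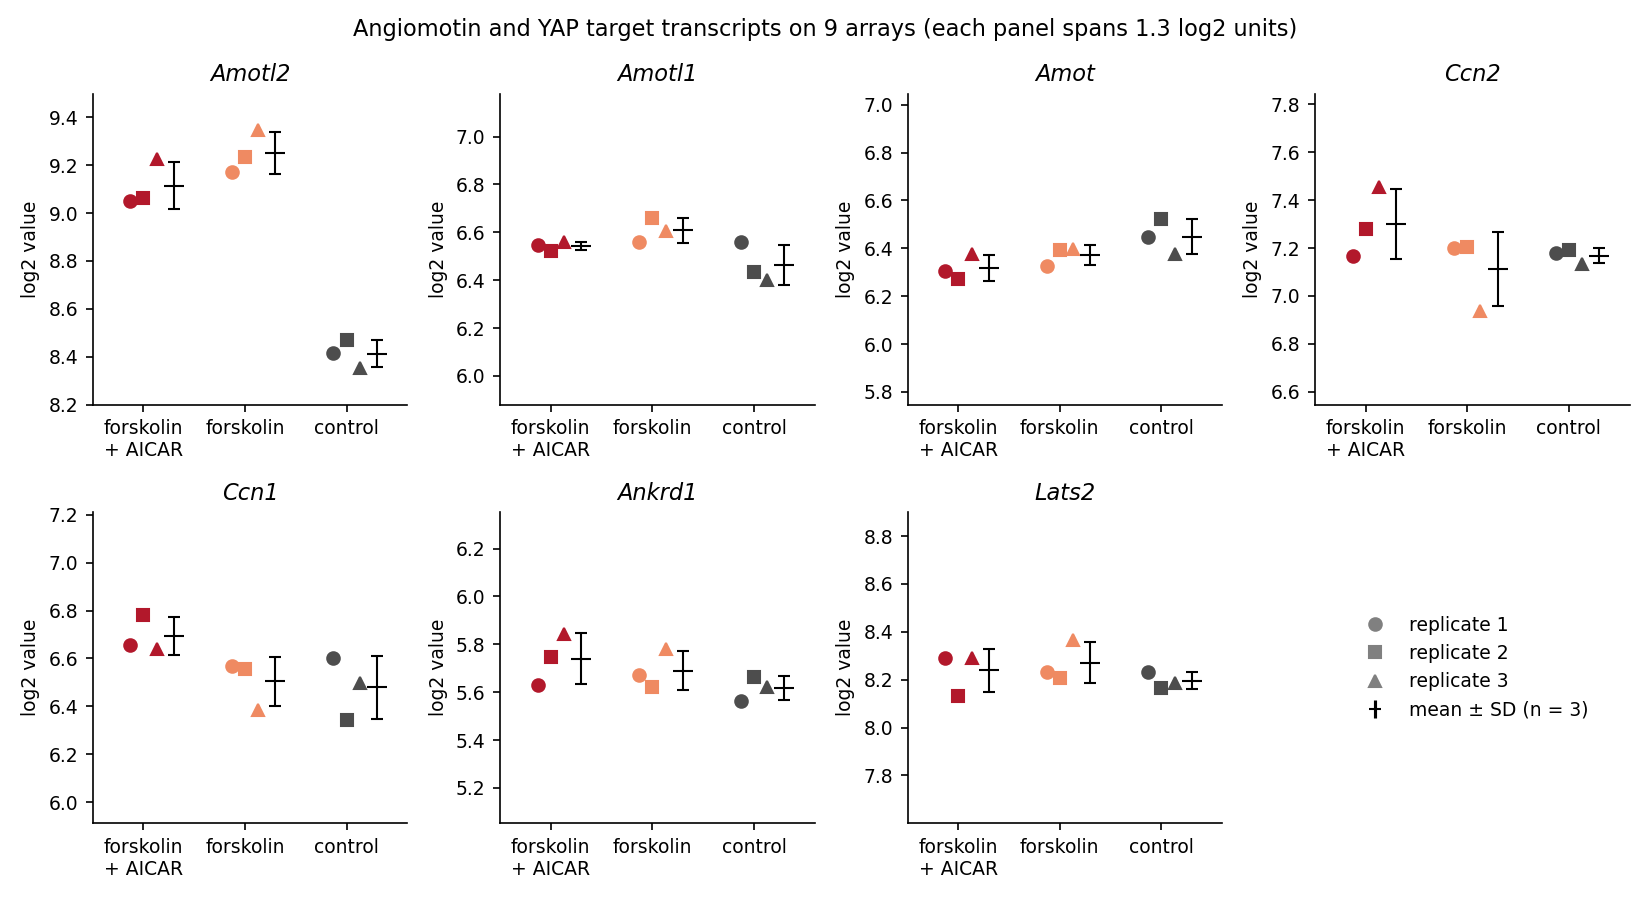
Log2 values of the 7 members on each array (y axis, log2 units; x axis, group), with symbols for replicates and bars for mean ± SD of 3 arrays; every panel has the same height in log2 units. Amotl2 sits between 9.05 and 9.35 in both forskolin-treated groups and between 8.35 and 8.47 in control, and the groups of Amotl1, Amot, Ccn2, Ankrd1 and Lats2 overlap.

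Genes most like Amotl2 over the 9 arrays were sought by Pearson correlation among 277 genes whose group means spanned at least 0.5 log2 units. The 8 nearest were Fosb (r = 0.99), Nr4a1 (0.99), Sik1 (0.98), Zfp36l1 (0.98), Dusp16 (0.98), Bhlhe40 (0.97), Dusp4 (0.97) and Sema4c (0.97). The points share the treatment groups, so the coefficients mainly describe 2 high groups and 1 low group. Fosb, an AP-1 subunit, had values of 8.70, 8.69 and 8.83 with forskolin and AICAR, 8.93, 8.86 and 8.98 with forskolin, and 7.69, 7.81 and 7.81 in control. Zfp36l1, which encodes a protein that promotes decay of AU-rich mRNAs, had 10.87, 10.85 and 10.81 with forskolin and AICAR, 10.98, 10.99 and 10.97 with forskolin, and 10.15, 10.27 and 10.18 in control. Sema4c, a transmembrane semaphorin, had 8.96, 8.91 and 8.91 with forskolin and AICAR, 9.08, 9.15 and 9.16 with forskolin, and 8.50, 8.60 and 8.43 in control. The control arrays of each of these 3 genes lay below all 6 treated arrays, as for Amotl2. Unlike Amotl2, all 3 also had their arrays with AICAR entirely below those with forskolin alone, as had 12.2% of all genes. Of the 8 nearest genes, Sik1 and Dusp4 overlapped between these groups, as Amotl2 did. Sik1, a kinase gene induced by cAMP, had the smallest AICAR difference of the 8 (−0.02), and Nr4a1 the largest (−0.46). The MAP kinase phosphatase genes Dusp16 and Dusp4 differed by 0.90 and 0.53 between forskolin and control and by −0.25 and −0.13 between forskolin with AICAR and forskolin. The circadian repressor gene Bhlhe40 differed by 0.90 and −0.26 in the same comparisons.

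**Figure D2:**
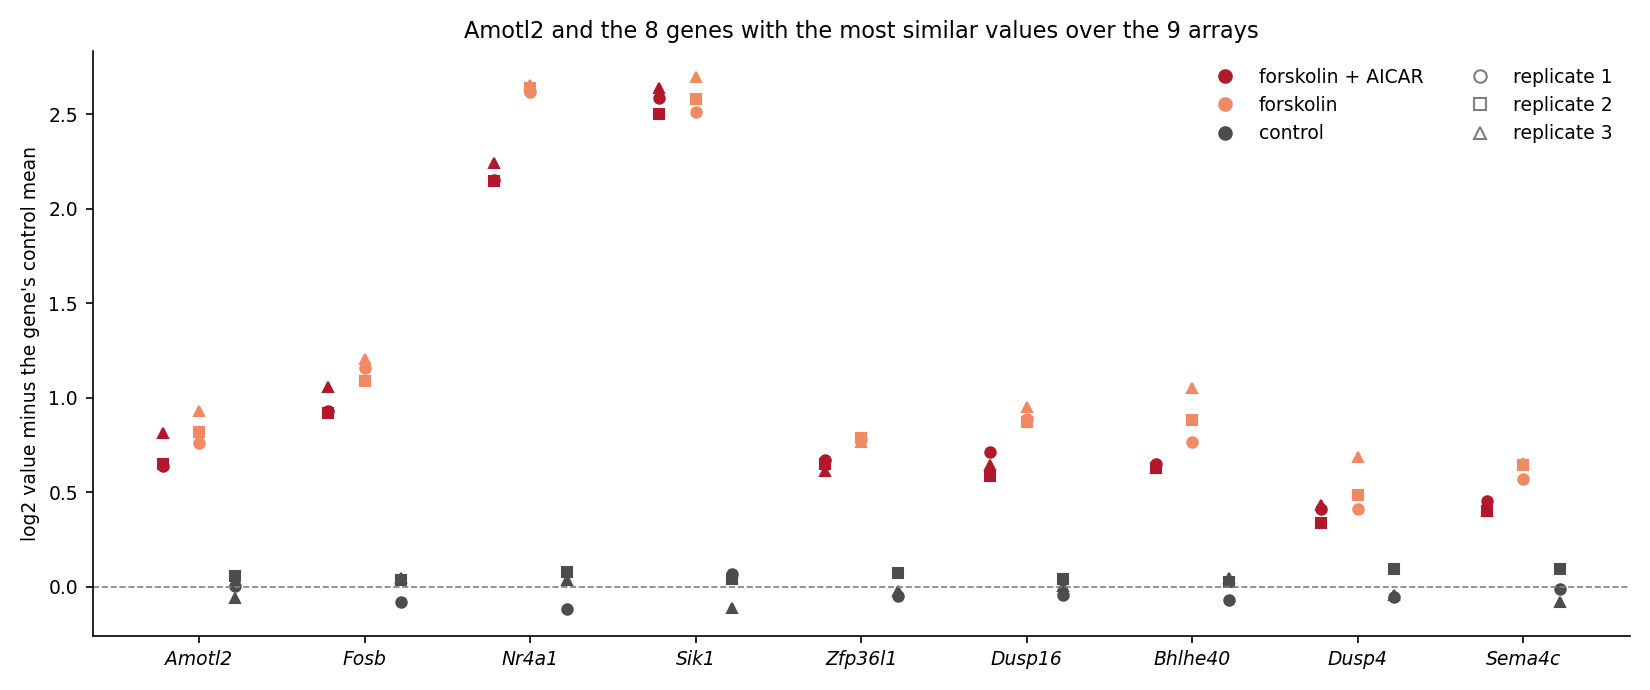
Values of Amotl2 and its 8 nearest genes on each array, as log2 value minus the gene's own control mean (y axis, log2 units), by gene (x axis) and group (colour), with symbols for replicates. In every gene shown the treated arrays lie above the control arrays. Nr4a1 and Sik1 sit more than 2 log2 units above control, Amotl2 between 0.64 and 0.93.

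The other 2 angiomotins did not pass the test in any comparison. Amotl1, which shares the YAP-binding region of the family, had log2 values of 6.55, 6.52 and 6.56 with forskolin and AICAR, 6.56, 6.66 and 6.61 with forskolin, and 6.56, 6.43 and 6.40 in control. The groups overlapped in all 3 comparisons, and 1 value of 6.56 was shared by 1 array of each group. Its difference between forskolin and control was 0.14 (95% interval 0.04 to 0.25, limma unadjusted p = 0.0147, adjusted p = 0.434). With AICAR it was −0.07 against forskolin (interval −0.17 to 0.04, adjusted p = 0.412) and 0.08 against control (interval −0.03 to 0.19, adjusted p = 0.283).

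Amot, the founding member of the family, lay slightly lower in treated cells. It had values of 6.31, 6.27 and 6.38 with forskolin and AICAR, 6.33, 6.39 and 6.40 with forskolin, and 6.45, 6.52 and 6.38 in control. The highest array with AICAR had the same value as the lowest control array. The difference was −0.08 between forskolin and control (interval −0.19 to 0.03, adjusted p = 0.848) and −0.06 between forskolin with AICAR and forskolin (interval −0.16 to 0.05, adjusted p = 0.491). Against control, cells with forskolin and AICAR differed by −0.13 (interval −0.24 to −0.02, unadjusted p = 0.0237, adjusted p = 0.111 in limma). Array weights, which called 6619 of the 19938 genes in this comparison against 1739 without them, made this last difference a called one (−0.19, adjusted p = 0.0106), while the range of its adjusted p over all alternatives reached 0.272.

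Ccn2 and Ccn1 encode secreted matrix proteins and are among the most widely used readouts of YAP activity. Neither passed the test. Ccn2 had log2 values of 7.17, 7.28 and 7.46 with forskolin and AICAR, 7.20, 7.20 and 6.94 with forskolin, and 7.18, 7.19 and 7.13 in control. The treated groups spread over 0.29 and 0.27 units where the controls spread over 0.06, and the groups overlapped. The difference was −0.05 between forskolin and control (interval −0.25 to 0.14, adjusted p = 0.959). It was 0.19 between forskolin with AICAR and forskolin (interval −0.01 to 0.38, adjusted p = 0.218) and 0.13 against control (interval −0.06 to 0.33, adjusted p = 0.307). Without replicate 3 of every group, an alternative added after the data were seen, the AICAR difference from forskolin was 0.02 (adjusted p = 0.864).

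Ccn1 had values of 6.66, 6.78 and 6.64 with forskolin and AICAR, 6.57, 6.56 and 6.38 with forskolin, and 6.60, 6.34 and 6.50 in control. Its 3 arrays with AICAR lay above all 6 others, the only such separation among the 6 tested members in the comparisons with AICAR. Over all genes, 11.5% had groups that did not overlap in this direction between forskolin with AICAR and forskolin, and 15.2% against control. How often genes of similar level separate in this way was not tested. The difference was 0.19 from forskolin (interval 0.02 to 0.36, unadjusted p = 0.0326, adjusted p = 0.173) and 0.21 from control (interval 0.04 to 0.38, unadjusted p = 0.0192, adjusted p = 0.1). Array weights, with 5729 genes called from forskolin and 6619 from control against 1017 and 1739 without them, made both differences called ones (0.21, adjusted p = 0.0327, and 0.30, adjusted p = 0.0103), while over all alternatives the adjusted p reached 0.537 and 0.257. Between forskolin and control Ccn1 differed by 0.02 (interval −0.15 to 0.19, adjusted p = 0.984).

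Ankrd1, a YAP target best known from stressed heart muscle, had log2 values of 5.63, 5.75 and 5.84 with forskolin and AICAR, 5.67, 5.62 and 5.78 with forskolin, and 5.56, 5.66 and 5.62 in control. All groups overlapped. The difference was 0.07 between forskolin and control (interval −0.07 to 0.21, adjusted p = 0.909) and 0.05 between forskolin with AICAR and forskolin (interval −0.09 to 0.19, adjusted p = 0.635). With AICAR the difference from control was 0.12 (interval −0.02 to 0.26, adjusted p = 0.207).

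Lats2, the Hippo kinase gene that YAP itself induces in other cells, had values of 8.29, 8.13 and 8.29 with forskolin and AICAR, 8.23, 8.21 and 8.37 with forskolin, and 8.23, 8.16 and 8.19 in control. The lowest of the 9 values was an AICAR array and the highest a forskolin array, with overlap throughout. The difference was 0.08 between forskolin and control (interval −0.06 to 0.21, adjusted p = 0.896). It was −0.03 between forskolin with AICAR and forskolin (interval −0.16 to 0.10, adjusted p = 0.751) and 0.04 between forskolin with AICAR and control (interval −0.09 to 0.17, adjusted p = 0.62).

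Of the 6 tested members, 0 were called between forskolin and control at an adjusted p under 0.05 in limma (1 at an unadjusted p under 0.05), where 0.692% of all genes were called. Between forskolin with AICAR and forskolin 0 were called (1 at an unadjusted p under 0.05), against 5.1% of all genes, and against control 0 (2 at an unadjusted p under 0.05), against 8.72% of all genes. Their median differences were 0.05, 0.01 and 0.10 in these comparisons, beside medians over all genes of 0.003, 0.02 and 0.02. The medians over all genes are not matched for level, and how genes of similar level differed was not tested. The comparisons share arrays. Every value of Amotl1, Amot, Ccn1 and Ankrd1 lay below the array medians, and Ccn2 lay near them. The absence of a call for these genes does not show an absence of response. For the forskolin comparison, the 6 intervals together ran from −0.2485 to 0.2538 log2 units. The 0.84 of Amotl2 is no yardstick for them, since that gene was picked for its rise.

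**Figure D3:**
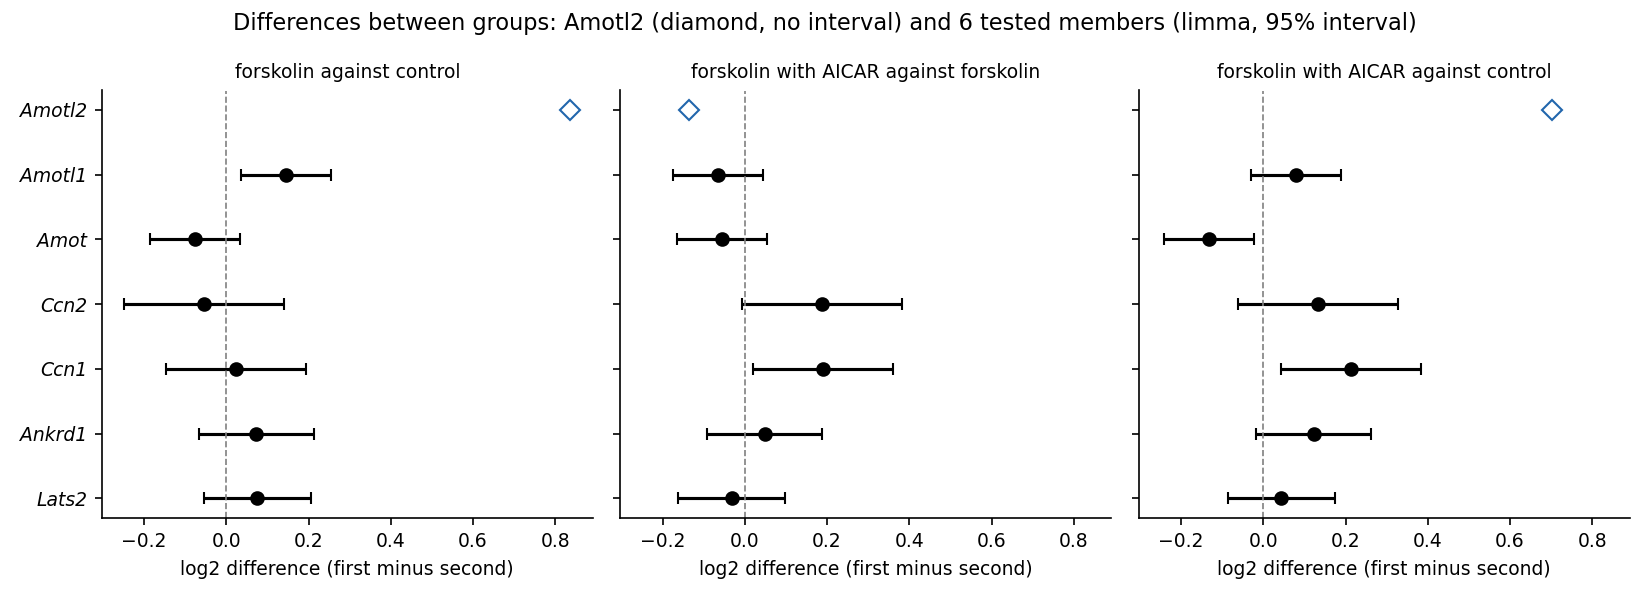
Log2 differences of the 7 members (x axis, first-named minus second-named group) in 3 comparisons, with 95% intervals from limma for the 6 tested members and none for Amotl2 (diamond). Amotl2 stands at 0.84 and 0.70 against control, and the other members between −0.13 and 0.21.

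The genes around this set were summarised from 5 lists, also drawn up with earlier results known, of which 72 genes were measured. Between forskolin and control limma called 0 of the 72 (9 at an unadjusted p under 0.05), against 0.692% of all genes. The nearest to a call in each list were F3, the tissue factor gene and a YAP target (0.25, adjusted p = 0.2), Vgll4, which competes with YAP for TEAD (−0.14, adjusted p = 0.424), and Lin7a, a polarity scaffold (0.12, adjusted p = 0.478). In the remaining lists they were Myl9, a myosin light chain gene driven by SRF (−0.38, adjusted p = 0.296), and the Ankrd1 relative Ankrd23 (0.20, adjusted p = 0.269). The list medians lay between −0.04 and 0.07.

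With AICAR, 2 of 17 other YAP and TEAD target genes were called lower than with forskolin and 0 higher, where 4.12% of all genes were called lower and 0.978% higher. Of the 17, 7 had an unadjusted p under 0.05 in limma from forskolin and 8 from control. All of these but the 2 genes called lower were higher with AICAR. The list median was 0.03 in both comparisons, so the 2 calls do not describe the list as a whole. Fjx1, the mouse relative of the fly gene four-jointed, had log2 values of 8.24, 8.03 and 8.15 with forskolin and AICAR, 8.55, 8.52 and 8.63 with forskolin, and 8.52, 8.61 and 8.57 in control. It fell by 0.43 (SE 0.06, limma adjusted p = 0.00247) from forskolin and by 0.43 from control (adjusted p = 0.0024). Gadd45a, a growth arrest gene that p53 also induces, had 9.15, 9.13 and 9.12 with forskolin and AICAR, 9.45, 9.42 and 9.45 with forskolin, and 9.38, 9.49 and 9.38 in control. It fell by 0.31 from forskolin (SE 0.04, adjusted p = 0.00261) and by 0.28 from control (adjusted p = 0.00391). For both genes the 3 arrays with AICAR lay below the 6 others, as was so for 12.2% of all genes against forskolin and 14.3% against control, while forskolin and control overlapped. Both calls were lost without replicate 3 of every group (adjusted p = 0.0891 and 0.0663 from forskolin, 0.0621 and 0.0566 from control), with differences of −0.40, −0.30, −0.43 and −0.30.

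Ptpn14, a YAP target whose protein binds YAP and keeps it out of the nucleus, rose with forskolin and AICAR against control (0.29, SE 0.04, limma adjusted p = 0.00278). Its values were 7.08, 7.09 and 7.10 with forskolin and AICAR, 6.98, 6.98 and 6.90 with forskolin, and 6.83, 6.83 and 6.75 in control. The 3 groups did not overlap, although neither step alone passed the test (0.15 between forskolin and control, adjusted p = 0.212, and 0.14 between forskolin with AICAR and forskolin, adjusted p = 0.0797). Over all genes, 6.85% did not overlap in this direction between forskolin and control, 11.5% between forskolin with AICAR and forskolin, and 15.2% between forskolin with AICAR and control. In this last comparison 3.04% of all genes were called higher. The call against control was kept without replicate 3 of every group (0.26, adjusted p = 0.0287).

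Among 20 measured Hippo kinases, YAP, TAZ and TEAD factors, 0 were called between forskolin and control or between forskolin with AICAR and forskolin (2 and 4 at an unadjusted p under 0.05). In the comparison of forskolin with AICAR and control, where 8.72% of all genes were called, Wwc1 rose and Nf2 fell. Wwc1, which encodes the Hippo activator KIBRA, had 6.26, 6.34 and 6.32 with forskolin and AICAR and 6.18, 6.16 and 6.08 in control (difference 0.17, SE 0.04, adjusted p = 0.0372). Nf2, which encodes merlin, a partner of KIBRA and angiomotin, had 10.47, 10.44 and 10.44 with forskolin and AICAR and 10.57, 10.58 and 10.67 in control (−0.16, SE 0.04, adjusted p = 0.0421). In both genes the groups did not overlap, as was so for 15.2% of all genes on the higher side and 14.3% on the lower. Both calls were lost with a replicate block (adjusted p = 0.0887 and 0.0844), after quantile normalization (0.0585 and 0.0697), in the fit of only these groups (0.0945 and 0.0892) and without any 1 array of these groups but AICAR replicate 1 (adjusted p up to 0.134 and 0.146). Without replicate 3 of every group the adjusted p was 0.212 and 0.161. Wwc1 was also not called with a trended and robust prior (0.0719). Yap1 itself had differences of −0.04, 0.02 and −0.02 in the comparisons of forskolin with control, forskolin with AICAR and forskolin, and forskolin with AICAR and control (adjusted p = 0.942, 0.801 and 0.801). Vgll4 was the nearest to a call between forskolin with AICAR and forskolin (0.15, adjusted p = 0.0995).

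Of 16 measured partners of the angiomotins, Magi1, a junctional scaffold that binds angiomotins, was the single gene called, higher with forskolin and AICAR than with forskolin. That is 6.25% of the list, near the 5.1% of all genes called in this comparison. It had 9.95, 9.88 and 9.95 with forskolin and AICAR, 9.64, 9.80 and 9.70 with forskolin, and 9.80, 9.77 and 9.77 in control. The difference was 0.21 (SE 0.05, adjusted p = 0.0339) from forskolin and 0.15 (adjusted p = 0.0827) from control. The call from forskolin was lost with a replicate block (adjusted p = 0.0973), in the fit of only these groups (0.107), without forskolin replicate 1 or 3 or AICAR replicate 2 or 3 (up to 0.113), and without replicate 3 of every group (0.267).

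Neither SRF cofactors with actin-linked SRF targets (13 measured) nor CCN and cardiac ankyrin repeat relatives (6 measured) had a called member in any comparison. In the first list 2, 3 and 2 genes had an unadjusted p under 0.05 in limma in the comparisons of forskolin with control, forskolin with AICAR and forskolin, and forskolin with AICAR and control, and in the second 2, 1 and 3. The nearest to a call with AICAR were the smooth muscle gene Tagln (0.23 from forskolin, adjusted p = 0.116) and the SRF cofactor gene Mrtfb (−0.18 from control, adjusted p = 0.0622). Among the relatives they were Ccn5 (0.18 from forskolin, adjusted p = 0.147) and Ankrd2 (0.19 from control, adjusted p = 0.0907). All 6 relatives had positive differences between forskolin with AICAR and control, from 0.09 to 0.19, with a median of 0.11. The median over all genes was 0.02. Ccn3, Ccn4 and Ccn6 lay below the array medians, and how often genes of similar level differ in this direction was not tested. The count over all 72 list genes was 3 (4.17%) between forskolin with AICAR and forskolin and 5 (6.94%) between forskolin with AICAR and control, near the 5.1% and 8.72% of all genes. Without AICAR replicate 1 these counts were 8 and 13, and without replicate 3 of every group 0 and 1.

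**Figure D4:**
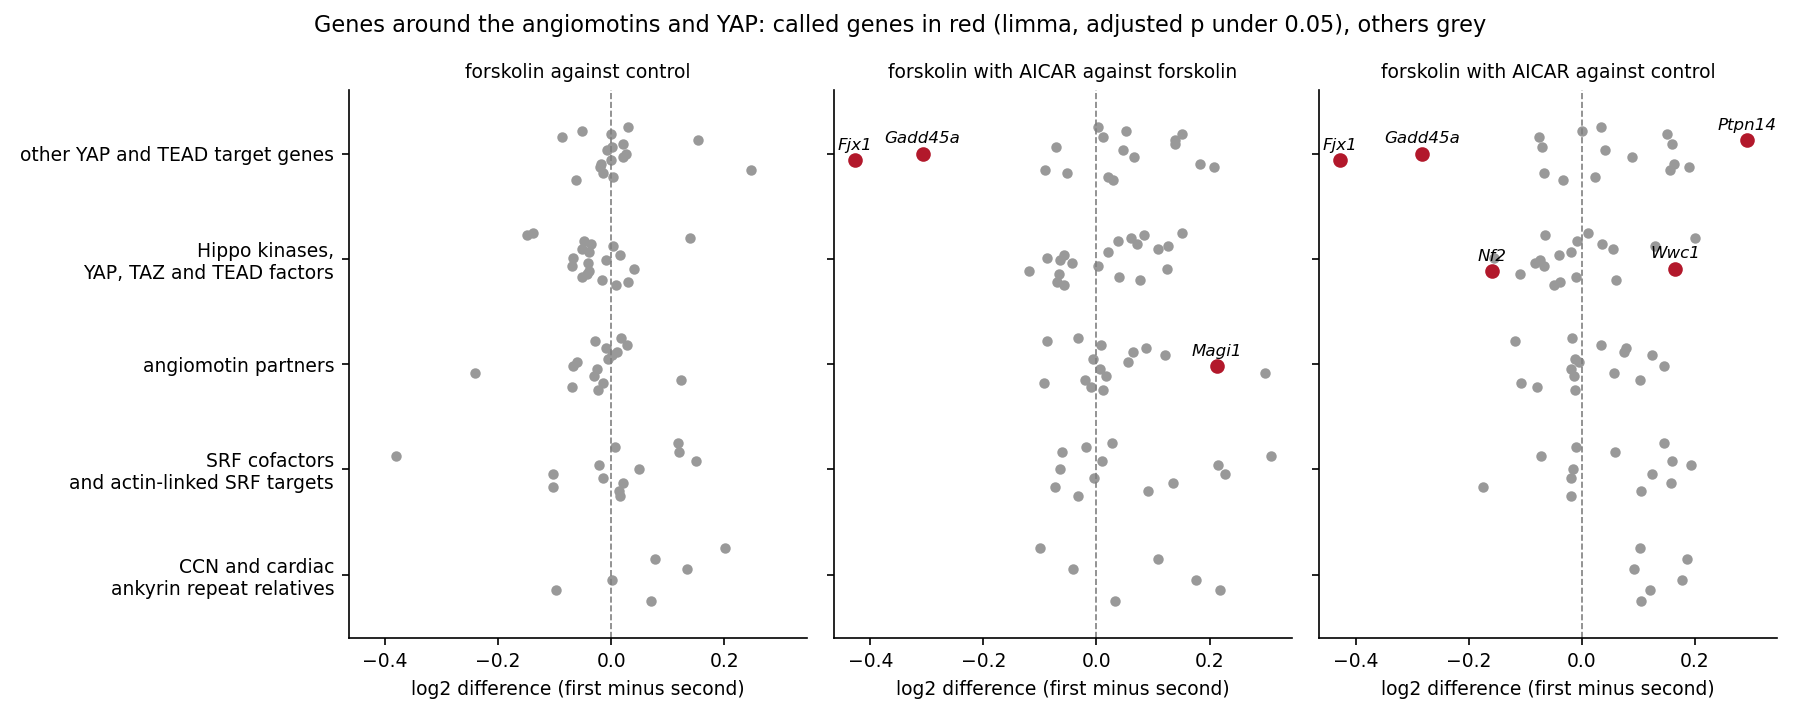
Log2 differences of 72 genes in 5 lists (x axis, first-named minus second-named group; y axis, list) in 3 comparisons, with 1 point per gene, called genes in red and named. No gene is called between forskolin and control, 3 are called between forskolin with AICAR and forskolin, and 5 between forskolin with AICAR and control.

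Arrays also differed within groups in a way the labels do not name. The first component of all genes' deviations from their group means held 46.04% of the sum of squares. It scored AICAR replicates 1 to 3 at −0.60, 0.04 and 0.56, forskolin replicates at 0.23, 0.11 and −0.34, and control replicates at 0.20, 0.11 and −0.31. The deviations of Ccn2 were −0.13, −0.02 and 0.16 on the AICAR arrays, 0.09, 0.09 and −0.18 on the forskolin arrays, and 0.01, 0.02 and −0.04 on the control arrays, so in every group the array with the lowest score was also the lowest in Ccn2. Amotl2 was highest on replicate 3 in both treated groups (0.11 and 0.10 above the means), although those arrays had scores of opposite sign, and lowest on replicate 3 in control (−0.06). The part of this component in the differences between groups was not tested.

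**Figure D5:**
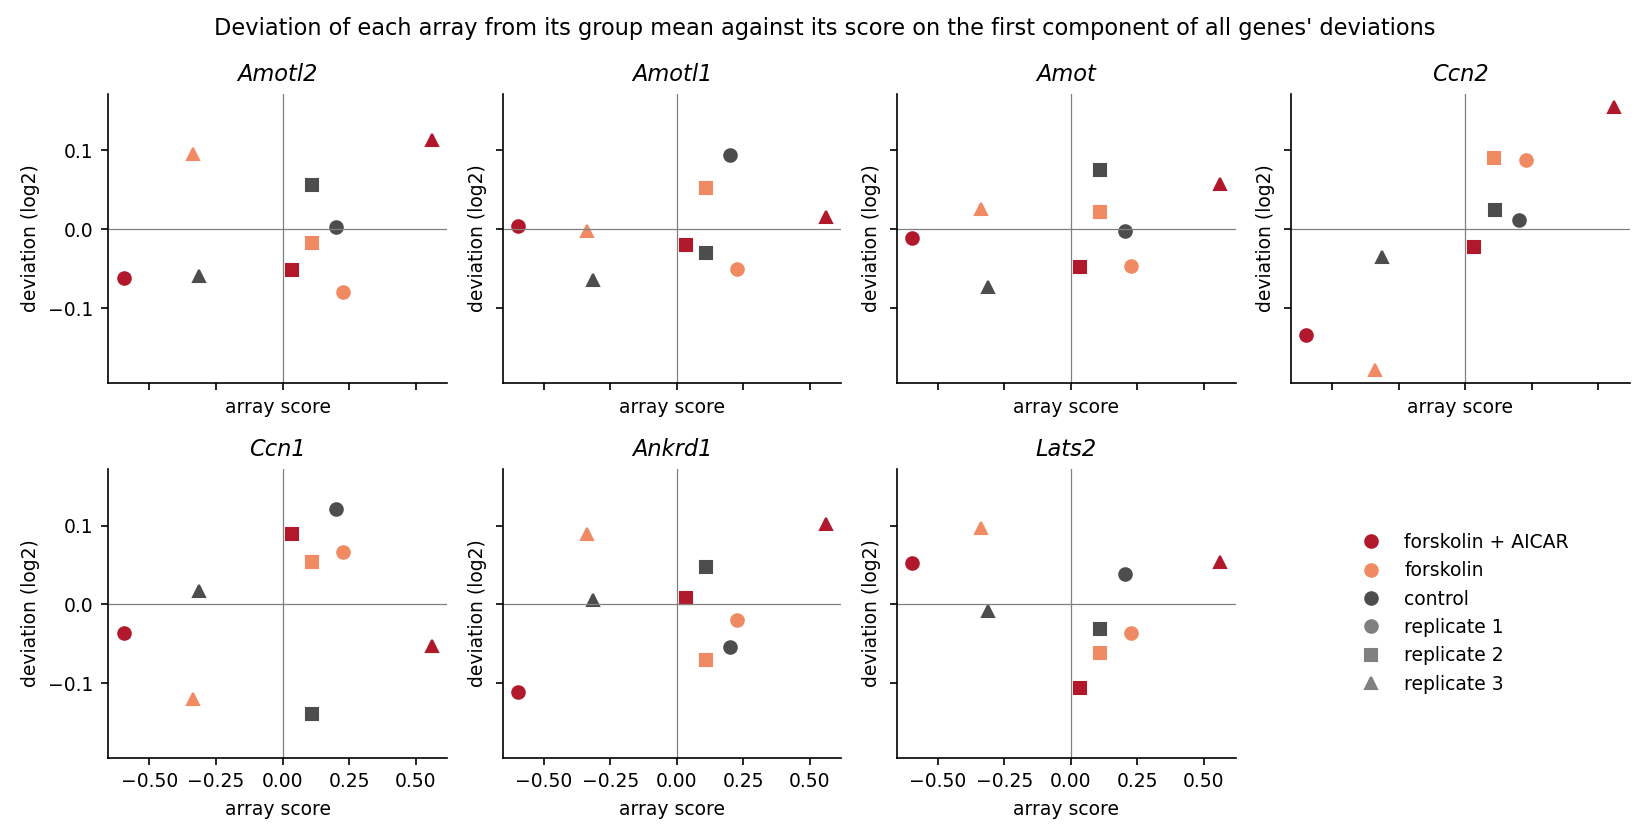
Deviation of each array from its group mean (y axis, log2 units) against the array's score on the first component of all genes' deviations (x axis, no unit) for the 7 members, with colours for groups and symbols for replicates. Ccn2 runs from −0.18 to 0.16, with the low scores at the low end. Amotl2 runs from −0.08 to 0.11, with replicate 3 of both treated groups at the high end and their scores of opposite sign.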

How the data were processed

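Total RNA of MA-10 cells was measured on 9 arrays, and the deposited table holds 1 log2 value per probe and array. Per the submitters' processing notes the authors used RMA and Partek. Versions, settings and a genome build are not given in the sources used here. RMA usually corrects background, makes the arrays share 1 distribution and summarises probes by median polish, so that a change shared by most genes would be removed. The deposited values still differed in spread between arrays (interquartile ranges 3.34 to 3.48). No array duplicated another.

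Of 35557 probes, 21789 carried 1 gene symbol, 1621 several and 12147 none listed. Genes with several probes (999) were represented by the brightest, which left 19938 genes, with no filter. Symbols follow the platform annotation, and list genes were also looked up by older symbols in RefSeq (GRCm38.p6), where 72 of the 76 pathway genes listed were measured.

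One mean per group was fitted over the 9 arrays with limma 3.58.1 under R 4.3.3, with two-sided moderated tests and Benjamini-Hochberg adjustment over all genes of a comparison, called at an adjusted p under 0.05. The fit was tested on simulated data. The members and lists were chosen with earlier results of these data known. Named were the members, up to 6 called genes of each list and comparison (or, with none called, the gene with the smallest p), the 8 genes most correlated with Amotl2 over 9 arrays (unnamed, predicted and receptor genes of smell excluded), and Star and Nr4a1. Markers named to describe the cells and Yap1 were chosen after their values were seen. Alternatives were a replicate block, filters on dim probes, 2 normalizations, another variance prior, fits of only 2 groups, array weights, the mean of a gene's probes, each array left out, and, added after the data were seen, replicate 3 of every group left out. The number of arrays limits the precision. Figures were drawn with matplotlib 3.10.9 in Python 3.11.15.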

Additional observations from a re-analysis of the deposited data

How the results depend on the processing

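The Amotl2 difference kept its direction under all alternatives run, at 0.76 to 0.88 between forskolin and control, −0.19 to −0.08 between forskolin with AICAR and forskolin, and 0.615 to 0.76 between forskolin with AICAR and control. Amotl2 was picked for this pattern on these same arrays, so its direction could hardly change, and these ranges are description only. Array weights gave the members called other than Amotl2 as 1 (Ccn1) between forskolin with AICAR and forskolin and 2 (Amot and Ccn1) between forskolin with AICAR and control, where all other alternatives gave 0. In the 3 comparisons in that order (forskolin and control first), array weights called 3, 24 and 25 of the 72 list genes, against 0, 3 and 5 without weights. They also called 436, 5729 and 6619 of all 19938 genes (2.19%, 28.7% and 33.2%), against 138, 1017 and 1739, so calls rose over all genes and not only among members and list genes. With replicate 3 of every group left out, the last 2 counts were 0 and 1. The fit of only the groups compared called 3 list genes in the last comparison. Leaving out 1 array gave 0 list genes between forskolin and control, 2 to 8 between forskolin with AICAR and forskolin, and 3 to 13 between forskolin with AICAR and control. With the replicate block, these counts were 0, 2 and 3. Same-numbered deviations correlated at 0.24, 0.01 and 0.33 between forskolin and control for replicates 1 to 3. Between AICAR arrays and the others the correlations ran from −0.41 to 0.08. Forskolin and control arrays of the same number had similar scores on the first component, and AICAR replicates 1 and 3 had opposite signs. Whether the replicate numbers pair the arrays was not tested beyond the block, which changed no call of a member.

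Differences near 0 changed sign. Between forskolin and control, Ccn1 was −0.0051 after quantile normalization and −0.0065 after median centring, with −0.0451 to 0.0848 over the arrays left out, and Ccn2 was 0.0008 with array weights and 0.0165 with replicate 3 of every group left out, with −0.0997 to 0.0342 over the arrays left out. Between forskolin with AICAR and forskolin, Lats2 was 0.0491 after quantile normalization, with −0.062 to 0.0216 over the arrays left out, and Ankrd1 ran from −0.0024 to 0.10 over the arrays left out. Between forskolin with AICAR and control, Lats2 was −0.0267 with array weights. The cause was not tested for any of these. Ankrd1 has no value with the filter at a mean of at least 6, which removes it.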
